A study of Mus musculus with 384 samples.

Results

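The cells described here are granulocyte/macrophage progenitors (GMPs) in the G2 and M phases of the cell cycle. GMPs are marrow progenitors of neutrophils and monocytes. Single GMPs were sorted from C57Bl/6 mice of the Scl-tTA::TRE-BCR/ABL model, in which the fusion oncogene of chronic myeloid leukaemia is switched on when doxycycline is taken away. The tTA activator is driven by Scl regulatory sequence, which is active in blood stem and progenitor cells. Mice were bred on doxycycline at 20 mg per L, induced at 5 weeks of age and analysed 5 to 6 weeks later, together with control mice whose genotype the labels do not state. The sort gate was Lin-, c-Kit+, Sca-1-, CD34+ and FcγR+, after enrichment on c-Kit microbeads, from crushed or flushed bones. The data are 384 SMART-seq2 libraries, 1 per well, in 4 sets of 96 wells: BCR-ABL replicates 1, 2 and 4 (called BCR-ABL 1, 2 and 4) and 1 control set. The labels do not say whether each set is 1 animal, so p-values measure the spread between these sets.

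A well was kept when it had at least 200000 gene reads and 2000 detected genes, which left 316 of 384 (72, 59, 91 and 94 in BCR-ABL 1, 2, 4 and control). A G2/M score was the mean of log2(CPM + 1), where CPM is a gene's count scaled to the same total of gene reads in every well, over 12 genes: Ube2c, Nusap1, Hmmr, Kif2c, Plk1, Aurka, Kif20a, Cdc20, Ccnb1, Ccnb2, Cenpf and Cenpe. The G2/M wells were chosen by these measured values, as the 25% of wells with the highest score in each set. They number 80 (18, 15, 23 and 24), and the remaining 236 (54, 44, 68 and 70) are called the other wells. The share of wells taken is the same in each set by construction, so it says nothing about how many cells of a set were dividing. No DNA content was measured, and the name rests on transcripts only.

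A dividing cell copies its DNA in S phase, prepares for division in G2 and separates its chromosomes in mitosis. Transcripts of the mitotic machinery build up through G2 under the MuvB complex, B-Myb and FoxM1. Promoters of such genes often hold elements known as CHR and CCAAT boxes. E2F factors drive an earlier wave of genes for replication licensing and DNA synthesis in late G1 and S. In GMPs the choice between neutrophil and monocyte fate is shaped by Gfi1 and Irf8, transcription factors that oppose each other. Neutrophil-primed GMPs make the primary granule proteins, among them myeloperoxidase (Mpo) and neutrophil elastase (Elane).

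The 12 score genes chose the wells, so their levels are a description and were not tested. In sums over the G2/M wells, Ube2c, the E2 enzyme of the anaphase-promoting complex, stood at 649, 654, 909 and 749 CPM in BCR-ABL 1, 2, 4 and control, against 82.8, 56.1, 156 and 52.4 in the other wells. Ccnb1, cyclin B1, stood at 160, 124, 256 and 177 CPM against 26.5, 19.6, 49.2 and 19.4. Cdc20, the activator of the anaphase-promoting complex, stood at 443, 373, 550 and 444 CPM against 141, 122, 153 and 93.2. For each of these genes, and for Plk1 and Aurka, every G2/M sum lay above every sum of other wells. Plk1, a kinase of mitotic entry, stood at 330, 333, 359 and 299 CPM against 67, 40.7, 113 and 40.6. Aurka, the spindle-pole kinase Aurora A, stood at 274, 293, 310 and 355 CPM against 61.4, 49, 95.2 and 37.2. Over all 12 genes and 4 sets the log2 ratio of G2/M to other wells ran from 1.24 (Ccnb2) to 3.82 (Ube2c). Each score gene had a read in 78 to 80 of the 80 G2/M wells and in 134 to 227 of the 236 other wells.

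The score had no gap at the boundary. The lowest G2/M well and the highest other well scored 6.98 and 6.83 in BCR-ABL 1, 6.37 and 6.27 in BCR-ABL 2, 7.43 and 7.39 in BCR-ABL 4, and 6.72 and 6.58 in control. A fixed score above 6 was reached by 24 of 72, 19 of 59, 41 of 91 and 30 of 94 wells, so 18 wells of BCR-ABL 4 and 4 to 6 wells of each of the other sets lay above 6 and were still counted as other wells. Median scores in the G2/M wells were 7.35, 7.37, 7.88 and 7.33. In the other wells they were 3.24, 3.67, 3.51 and 2.75. The comparison wells thus include some with high mitotic scores.

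**Figure D1:**
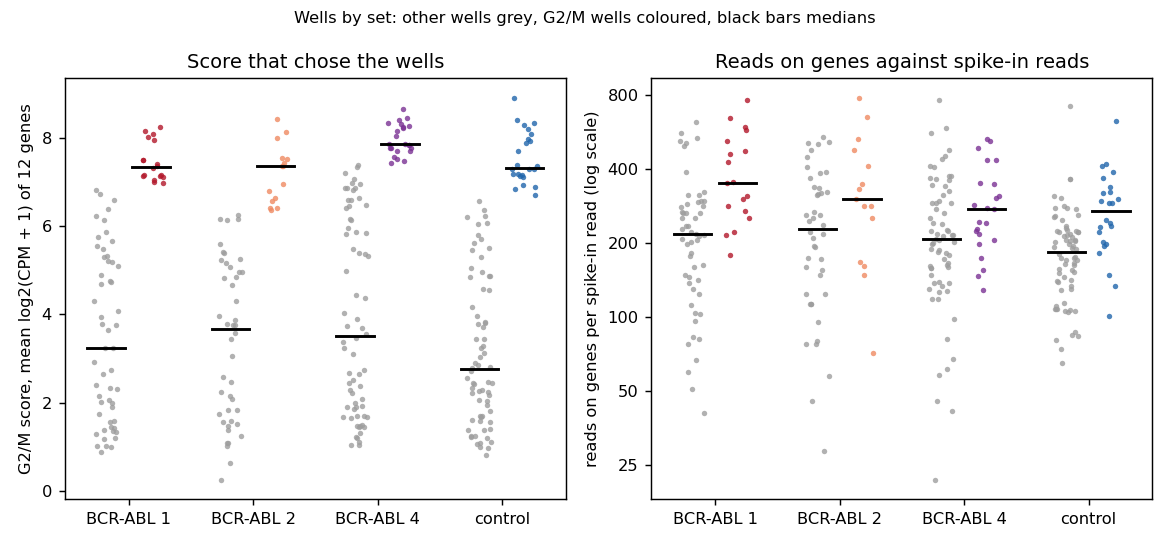
Left, the G2/M score of each of the 316 wells by set; right, reads on genes per spike-in read on a log scale. Points are wells, grey for other wells and coloured for G2/M wells, and black bars are medians. The score runs without a gap into the G2/M wells, and the median of reads per spike-in read is higher in the G2/M wells of each set, for example 351 against 217 in BCR-ABL 1.

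G2/M wells had more reads on genes relative to the spike-in controls that were added to each well. The score itself rose with reads on genes (Spearman correlation 0.48, 0.29, 0.33 and 0.24 across wells of BCR-ABL 1, 2, 4 and control). The part of well yield in the spike-in ratio was not tested. Reads on genes per spike-in read had medians of 351, 302, 273 and 269 in the G2/M wells and 217, 228, 206 and 184 in the other wells of BCR-ABL 1, 2, 4 and control. The ratio lay between 1.32 and 1.62 and was above 1 in 4 of 4 sets (exact permutation test over sets, two-sided p = 0.13, the smallest p that 4 pairs allow). Reads on genes were 1.13 to 1.62 times as many in G2/M wells, and after thinning every well to 200000 reads the number of genes detected was 1.06 to 1.12 times as high, each in 4 of 4 sets with the same exact p. Mitochondrial reads made up 2.96% to 3.46% of reads in the G2/M wells and 2.71% to 3.33% in the other wells (set medians, higher in 2 of 4 sets, exact permutation p = 0.625). Because all levels below are relative to reads on genes, an equal CPM in the 2 kinds of well still goes with more reads per spike-in read in the G2/M wells.

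Depth was 215800 to 4758711 reads on genes per well, with a median of 1495308. One G2/M well of BCR-ABL 4 stood apart with 19454 genes detected, against 11679 in the next well, and main counts are also given without it. The sets differ in sex-linked transcripts: Xist, the transcript of the inactive X chromosome, stood at 293 and 424 CPM in the G2/M sums of BCR-ABL 1 and control, at 0 in BCR-ABL 2 and at 0.11 in BCR-ABL 4. The Y-linked Eif2s3y stood at 85.7 and 114 CPM in BCR-ABL 2 and 4 and at 0 in BCR-ABL 1 and control. BCR-ABL 1 and control thus share the transcripts of 1 sex and BCR-ABL 2 and 4 those of the other, which touches comparisons between sets and not those within a set. The gate was reflected in the G2/M sums: Kit stood at 189 to 324 CPM, Cd34 at 129 to 534, Fcgr3 at 552 to 710 and Fcgr2b at 192 to 249, while Ly6a, which encodes Sca-1, stood at 0.75 to 2.17 CPM.

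Genes outside the score were compared between the G2/M sum and the sum of other wells of the same set, with edgeR's quasi-likelihood test and the set as a block. Of 17591 genes tested, 53 rose (0.301%) and 16 fell (0.091%) at an adjusted p under 0.05. Of the 53 that rose, 36 stood on 6 lists of mitosis genes (131 genes in all), and of the 16 that fell, 7 stood on a list of G1/S genes. Mitotic genes share their regulation with the 12 genes that chose the wells, so their calls describe the programme that the score picks out and are not independent evidence of it. Before adjustment, 895 genes were higher with p under 0.05 (5.09%) and 1068 lower (6.07%). Higher in all 4 sets were 1358 genes (7.72%), and lower in all 4 were 2200 (12.5%). The median log2 change over all genes tested was -0.06.

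The largest called rise was that of Cdc25b (chromosome 2, 131186949 to 131198497, + strand, mm10), the phosphatase that removes the inhibitory phosphates from Cdk1 at mitotic entry. Its G2/M sums stood at 56.9, 63, 105 and 108 CPM in BCR-ABL 1, 2, 4 and control, against 6.31, 2.60, 7.81 and 8.62 CPM in the other wells. The groups did not overlap, and the log2 change was 3.80 ± 0.27 (SE, edgeR adjusted p = 0.0236). A read of Cdc25b was found in 61 of 80 G2/M wells and 82 of 236 other wells. Cdk1 itself, the catalytic partner of cyclin B, stood at 476, 534, 730 and 522 CPM against 216, 215, 312 and 193 (log2 change 1.30 ± 0.07, adjusted p = 0.0205). On the list of mitotic kinases and their partners 9 of 20 genes rose and none fell, and 16 were higher in all 4 sets, with a median log2 change of 1.24. Among them, Nek2, a centrosome kinase, rose by 2.05 on the log2 scale, the cyclin F gene Ccnf by 1.95, Tpx2, which encodes the activator of Aurora A on the spindle, by 1.83, and the cyclin A2 gene Ccna2 by 1.36.

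Genes of the spindle formed the list with most calls, 10 of 28 risen and none fallen, with a median log2 change of 1.52. Psrc1, which encodes a protein of the spindle midzone, stood at 45, 49.2, 67.6 and 35 CPM in the G2/M sums against 9.14, 3.03, 11.8 and 4.54 (log2 change 2.95 ± 0.33, adjusted p = 0.0481). Prc1, which bundles the midzone microtubules, rose by 2.10, and the chromokinesin genes Kif4 and Kif22 by 2.04 and 1.90. For cytokinesis, 5 of 18 listed genes rose, with a median of 1.56. They include Sapcd2, a gene of spindle orientation (2.01), Cep55, which encodes a midbody protein (1.43), and Anln, which encodes the scaffold anillin of the contractile ring (1.21).

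On the list of kinetochore and checkpoint genes, 8 of 29 rose and none fell, with a median log2 change of 1.05. Cenpa, which encodes the histone H3 variant that marks centromeres, stood at 396, 393, 716 and 512 CPM in the G2/M sums against 118, 90.6, 134 and 122 (log2 change 2.11 ± 0.12, adjusted p = 0.0205). Its G2/M and other sums did not overlap, and the highest value was in BCR-ABL 4. Bub3, a spindle checkpoint gene, rose by 1.30, Birc5, the survivin gene of the chromosomal passenger complex, by 1.26, and Hjurp, which encodes the chaperone that loads Cenpa, by 0.82. Of 24 genes of chromosome structure 4 rose, with a median of 0.33. Those 4 were Mki67 (1.08), the Ki-67 gene, the separase gene Espl1 (1.38) and the condensin subunit genes Smc4 (0.78) and Ncapd2 (0.84). Top2a, topoisomerase II alpha, was at 1.24 ± 0.16 and missed the threshold (adjusted p = 0.0626), higher in 4 of 4 sets.

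None of 12 listed regulators of mitotic transcription passed the test (edgeR, smallest adjusted p = 0.0971), and their median log2 change was 0.03. Foxm1, the forkhead activator of G2/M genes, stood at 56.5, 58.9, 75.6 and 81.3 CPM in the G2/M sums against 15.1, 15, 46.7 and 19.8 (log2 change 1.68 ± 0.26, adjusted p = 0.0971). All 4 G2/M sums of Foxm1 lay above all 4 sums of other wells. Mybl2, which encodes B-Myb and is itself an E2F target, was lower in 4 of 4 sets (log2 change -0.67 ± 0.18, adjusted p = 0.302).

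**Figure D2:**
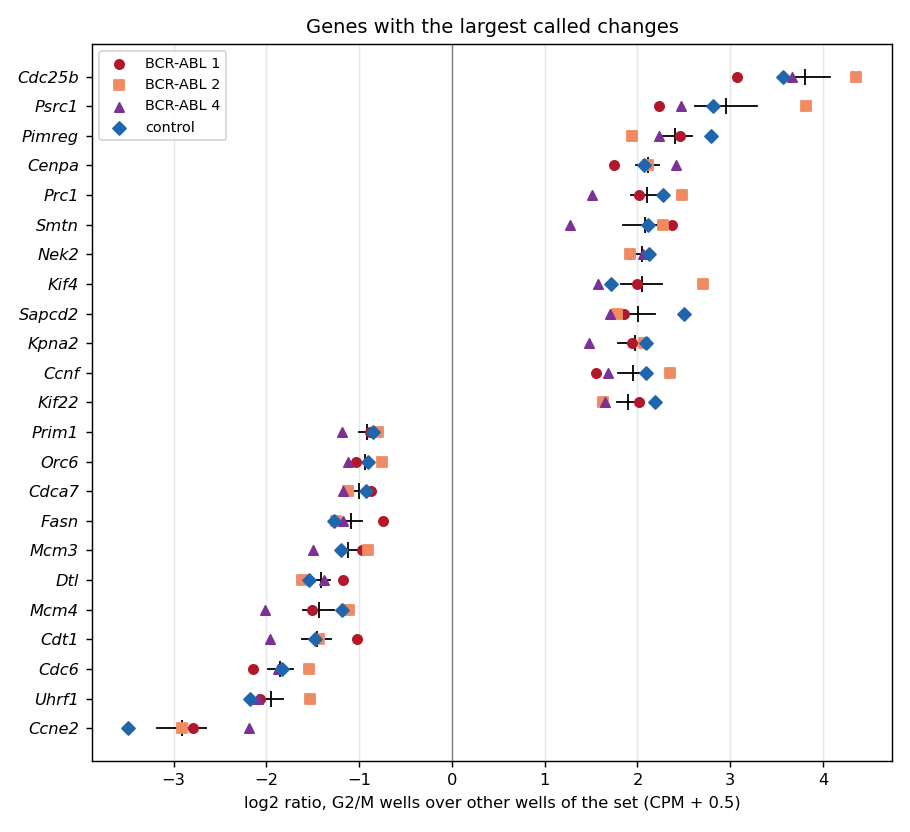
Log2 ratio of CPM + 0.5 in G2/M wells over other wells, by set, for the 12 genes with the largest called rise and 11 of the 12 with the largest called fall (Nrtn, at 0 in 2 G2/M sums, is left out). Points are sets and black bars the fitted log2 change ± SE. Each gene lies on 1 side of 0 in all 4 sets, from Cdc25b at 3.80 to Ccne2 at -2.91.

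Of the 53 risen genes 17 stood on none of the mitosis lists. Pimreg, which encodes a partner of the clathrin assembly protein CALM, rose by 2.41 ± 0.18 (58.8 to 117 CPM in the G2/M sums against 14.3 to 23.4). Kpna2, an importin alpha gene, rose by 1.97 and Smtn, the smoothelin gene of the actin cytoskeleton by 2.08. Arl6ip1, which encodes a membrane-shaping protein of the endoplasmic reticulum, stood at 914, 825, 1305 and 1299 CPM against 396, 424, 491 and 462 (log2 change 1.29 ± 0.10, adjusted p = 0.0236). The groups did not overlap for any of these 4 genes, which were named for large changes or after their values were seen. The share of all genes tested without overlap is not given, here or for other genes named.

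Promoter sequence is shown for 2 score genes and 2 called genes that moved together, to set the CCAAT box and CHR of this class beside a gene with fewer of them. These genes were chosen for display, and shares over the risen genes and the score genes are given below. Sequences are the 170 bases before the RefSeq start on GRCm38.p6, 5′ to 3′ on the gene's strand. An exon of GENCODE vM21 covers 26 of these bases in Cdk1, 9 in Cdc20 and 0 in Ccnb2 and Cdc25b. Capitals mark the common CHR spelling TTTGAA, another accepted spelling of that element, TTCGAA, the box CCAAT, and letters of an E2F site (TTTGGCGC or TTTCCCGC or TTTGCCGC or TTTCGCGC), each on either strand.
Cdc20 (chr4:118437344-118437513, - strand): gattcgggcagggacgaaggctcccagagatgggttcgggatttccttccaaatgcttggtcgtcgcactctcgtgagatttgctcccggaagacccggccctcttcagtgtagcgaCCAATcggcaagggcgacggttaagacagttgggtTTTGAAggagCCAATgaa
Ccnb2 (chr9:70421555-70421724, - strand): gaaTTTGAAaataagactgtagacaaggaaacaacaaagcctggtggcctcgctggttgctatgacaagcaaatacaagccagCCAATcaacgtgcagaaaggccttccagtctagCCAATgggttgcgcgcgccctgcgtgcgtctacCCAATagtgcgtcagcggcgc
Cdk1 (chr10:69352913-69353082, - strand): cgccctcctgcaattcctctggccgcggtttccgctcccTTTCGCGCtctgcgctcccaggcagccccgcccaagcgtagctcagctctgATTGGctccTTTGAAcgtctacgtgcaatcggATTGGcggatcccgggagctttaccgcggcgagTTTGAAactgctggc
Cdc25b (chr2:131186778-131186947, + strand): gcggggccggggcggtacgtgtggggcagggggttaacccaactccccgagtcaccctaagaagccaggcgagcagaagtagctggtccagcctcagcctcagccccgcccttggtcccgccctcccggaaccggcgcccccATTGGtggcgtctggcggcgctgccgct
Cdk1 held 2 CHR, 2 CCAAT and 1 E2F match in this stretch, Cdc20 held 1 CHR and 2 CCAAT, Ccnb2 held 1 CHR and 3 CCAAT, and Cdc25b, the gene with the largest rise, held 1 CCAAT and no other match.

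Over the 250 bases before the start, 44 of the 53 genes that rose had a window in the RefSeq table. CHR letters stood in 21 of those 44 (47.7%), CCAAT in 32 (72.7%), and both in 18 (40.9%). Of the 27025 genes in the table, 19.6% held CHR letters, 37.5% CCAAT and 7% both. These shares were not limited to the 17591 genes tested, from which the risen genes came. A gene with several windows counted as holding a motif when any window did. Of the score genes, 4 of the 11 with a window held CHR letters, 9 held CCAAT and 3 held both (27.3%). E2F letters stood in 3 of the 44 risen genes (6.82%), against 2.16% of the genes in the table. Only 11 of the 16 genes that fell had a window, so no motif count is given for them. A match is a run of letters and not a measured binding site.

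Genes of the late G1 and S phases were lower in the G2/M wells. On the G1/S list 7 of 52 genes fell and none rose, 43 were lower at an unadjusted p under 0.05 and 45 were lower in all 4 sets, with a median log2 change of -0.89. Ccne2, which encodes cyclin E2, the partner of Cdk2 at the entry into S phase, stood at 9.53, 6.34, 8.63 and 4.69 CPM in the G2/M sums against 69, 51, 41.2 and 57.7 (log2 change -2.91 ± 0.26, adjusted p = 0.0288). Every G2/M sum lay below every sum of other wells. Uhrf1, which encodes a factor that maintains DNA methylation behind the replication fork, stood at 52.3, 85.4, 39.9 and 50.5 CPM against 221, 248, 171 and 230 (-1.96 ± 0.13, adjusted p = 0.0236). Cdc6, which loads the replicative helicase, stood at 26.6, 38.8, 13.2 and 27.8 CPM against 119, 114, 49.4 and 100 (-1.85 ± 0.13).

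The other 4 called genes of the list changed by -1.46 (Cdt1, the licensing partner of Cdc6), -1.44 and -1.12 (Mcm4 and Mcm3, subunits of the helicase) and -0.91 (the primase gene Prim1). Off the list, Dtl, whose product directs Cdt1 to degradation, changed by -1.41 and the origin recognition subunit gene Orc6 by -0.94. 2 genes of metabolism also fell, the fatty acid synthase gene Fasn (-1.09 ± 0.12, adjusted p = 0.0481) and the purine synthesis gene Paics (-0.69). Ccnd2, cyclin D2, was at -0.84 ± 0.22 (adjusted p = 0.293, lower in 4 of 4 sets), and the CDK inhibitor gene Cdkn2d was at 1.31 ± 0.16 (adjusted p = 0.0567, higher in 4 of 4 sets). None of 17 G1 cyclins, their kinases and inhibitors passed the test.

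Prg2, the eosinophil major basic protein gene, passed the test as lower, and 99.3% of its reads in the kept wells came from 1 other well of BCR-ABL 4. That call describes 1 cell. Nrtn and Sncaip also passed as lower, from 0.01 and 0.02 CPM in the G2/M sums and 4.79 and 2.46 CPM in the other wells on average, with a read in 33 and 29 of all 316 wells.

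**Figure D3:**
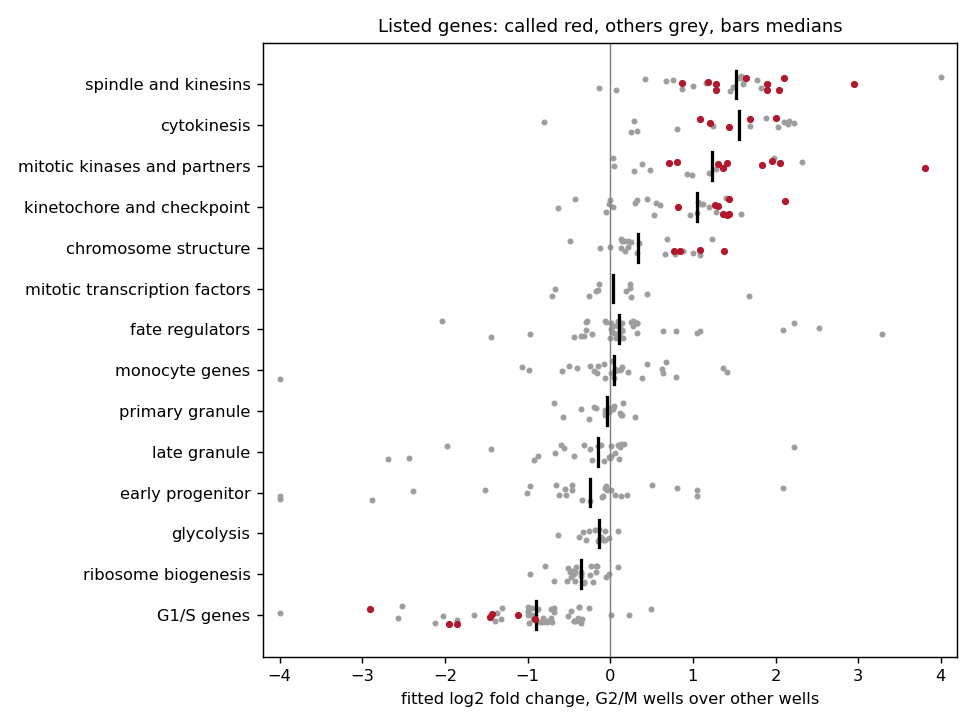
Fitted log2 change in G2/M wells over other wells for the tested genes of 14 lists, called genes in red, others in grey, black bars the list medians; 5 points beyond 4 in size are drawn at the edge. The medians of the 5 lists of mitotic machinery lie to the right of 0, that of the G1/S list to the left (-0.89), and the granule, monocyte and fate lists hold no called gene.

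Ribosome biogenesis genes leaned the same way as the S phase genes, with smaller changes that did not pass the test. Of 26 listed genes none was called, 25 had a negative log2 change, and 15 were lower at an unadjusted p under 0.05, with a median of -0.35. Of all 17591 genes tested, 9897 had a negative change. The list's median was nearer 0 against the 25% of wells with the lowest score (-0.12), with the first 6 score genes (-0.15), with a larger top share of wells (-0.20) and in wells with Gfi1 and without Irf8 (-0.07), and was -0.57 in wells with Irf8. Ncl, the nucleolin gene, stood at 1182, 1069, 810 and 956 CPM in the G2/M sums against 1324, 1449, 1205 and 1212 (-0.36 ± 0.08, adjusted p = 0.205). Every G2/M sum of Ncl lay below every sum of other wells. Nolc1, a nucleolar phosphoprotein gene, was at -0.79 ± 0.12 (adjusted p = 0.0967). DESeq2 on the same sums called 11 of the 26, all lower, beside 557 lower and 477 higher of all 17591 genes tested. For 16 glycolysis genes the median was -0.14, and 15 lay below 0 without a call. That median was -0.01 without BCR-ABL 4 and 0.03 against the 25% of wells with the lowest score.

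The most abundant primary granule transcripts, those of Mpo and Elane, showed small fitted log2 changes between G2/M and other wells. Mpo stood at 29481, 26211, 34156 and 31062 CPM in the G2/M sums of BCR-ABL 1, 2, 4 and control, against 29081, 29769, 30722 and 29679 in the other wells. The groups overlapped, and the log2 change was 0.04 ± 0.06 (SE), with an approximate 95% interval from -0.11 to 0.18. Elane stood at 17359, 16488, 23697 and 11634 CPM against 18157, 16976, 17480 and 13643 (0.05 ± 0.11, interval -0.23 to 0.33). It was higher in the G2/M sum of BCR-ABL 4 and lower in those of BCR-ABL 1, 2 and control. For the serine protease genes Prtn3 and Ctsg the changes were 0.15 ± 0.06 and 0.12 ± 0.05, with upper interval ends of 0.31 and 0.24. Every G2/M well held reads of Mpo and of Elane, from 5870 to 51160 CPM for Mpo and from 203 to 43100 CPM for Elane.

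Of 22 primary granule genes 21 were tested and none was called, with a median log2 change of -0.04. None was higher at an unadjusted p under 0.05 and 3 were lower: Cst7, the cystatin F gene (-0.20 ± 0.05, lower in 4 of 4 sets, adjusted p = 0.309), Hsd11b1, a glucocorticoid-activating reductase gene (-0.58 ± 0.18, lower in 4 of 4), and Fcnb, the ficolin B gene (-0.68 ± 0.23, lower in 3 of 4). DESeq2 called these 3 as lower, beside 557 lower of all 17591 genes tested. For Cst7 the G2/M sums stood at 789, 717, 929 and 491 CPM against 958, 824, 1015 and 589, so the groups overlapped across sets while each set moved the same way.

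Genes of later granules and of maturing neutrophils were mostly low in these cells and none passed the test (27 of 30 tested, median -0.15). Lyz2, the lysozyme gene of neutrophils and monocytes (chromosome 10, 117277331 to 117282321, - strand), stood at 237, 340, 266 and 583 CPM in the G2/M sums against 327, 538, 357 and 1109 in the other wells. It was lower in 4 of 4 sets, by -0.60 ± 0.10 with an interval from -0.85 to -0.34, and its adjusted p was 0.119. Lyz2 passed the threshold as lower with DESeq2, with sums from thinned wells and against the 25% of wells with the lowest score. Of all genes tested, these runs called 557 of 17591, 55 of 13222 and 2 of 15948 lower. Lcn2, lipocalin 2, was at 0.01 ± 0.17 and S100a8, a calprotectin subunit gene, at 0.00 ± 0.35. Ltf, lactoferrin, had reads in 3 of 80 G2/M wells and 1 of 236 other wells, and Camp, cathelicidin, in 9 and 21.

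**Figure D4:**
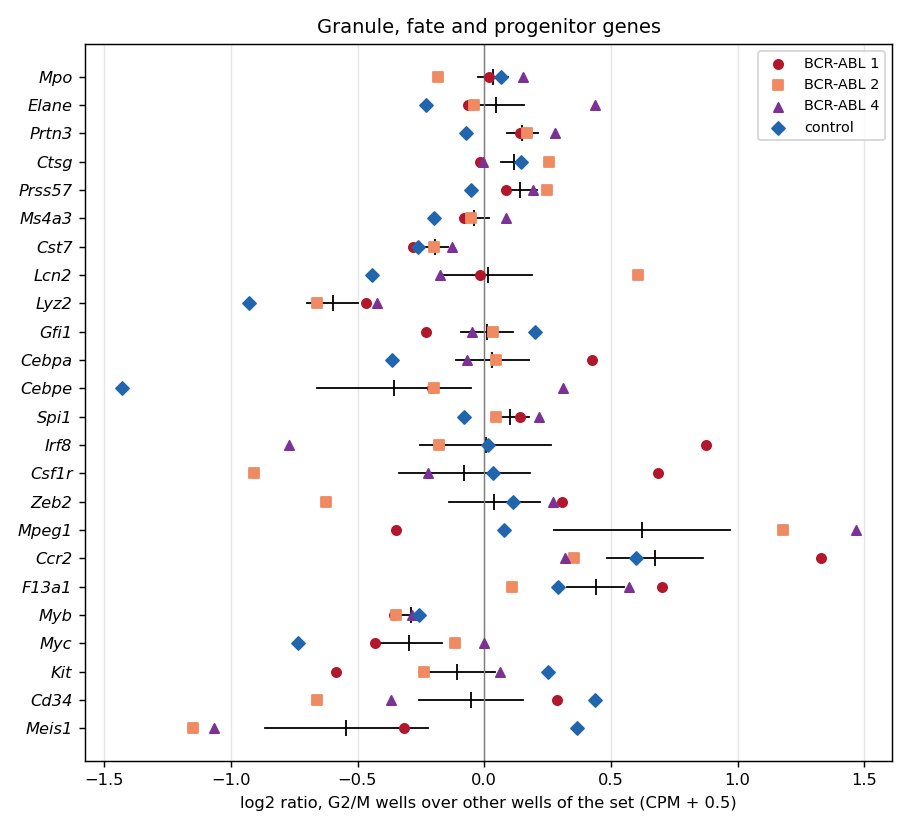
Log2 ratio of CPM + 0.5 in G2/M wells over other wells, by set, for 24 granule, fate and progenitor genes. Points are sets and black bars the fitted log2 change ± SE. Mpo, Elane, Gfi1 and Irf8 lie around 0, Lyz2, Cst7 and Myb lie below 0 in 4 of 4 sets, and Ccr2 and F13a1 above 0 in 4 of 4.

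The fate regulators Irf8 and Gfi1 did not differ between G2/M and other wells beyond the spread between sets. Irf8 stood at 381, 387, 41 and 997 CPM in the G2/M sums and at 208, 438, 70.3 and 986 in the other wells. It was higher in 2 sets and lower in 2, with a log2 change of 0.01 ± 0.26 and an interval from -0.64 to 0.65. Gfi1 stood at 92, 85.1, 156 and 45.5 CPM against 108, 83, 162 and 39.5 (0.01 ± 0.10, interval -0.24 to 0.26). Each gene ranged far more between sets than between the 2 kinds of well. Spi1, which encodes the myeloid master factor PU.1, was at 0.10 ± 0.07, Cebpa, a factor of granulocyte commitment, at 0.03 ± 0.14, and Cebpe, a factor of granule maturation, at -0.36 ± 0.30.

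Of 46 fate regulators 45 were tested and none was called (median 0.10). Myb, the progenitor factor c-Myb, stood at 383, 383, 552 and 338 CPM in the G2/M sums against 490, 488, 672 and 405. It was lower in 4 of 4 sets by -0.29 ± 0.06 (interval -0.43 to -0.15, adjusted p = 0.169). Myc was at -0.30 ± 0.13 (adjusted p = 0.49), with BCR-ABL 4 at 506 CPM in both kinds of well. Stat3, a cytokine-signalling factor, was at 0.33 ± 0.08 and Lyl1, a relative of Scl, at 0.27 ± 0.08, each higher in 4 of 4 sets with adjusted p of 0.271 and 0.324. DESeq2 called Myb as lower and Stat3 and Lyl1 as higher, beside 557 lower and 477 higher of all 17591 genes tested.

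Monocyte genes showed no shared direction, with 30 of 33 tested, none called and a median of 0.05. Ccr2, the chemokine receptor of monocytes, stood at 191, 142, 118 and 207 CPM in the G2/M sums against 75.5, 111, 94.5 and 136 (0.67 ± 0.19, adjusted p = 0.318). F13a1, coagulation factor XIII A, stood at 947, 585, 663 and 922 CPM against 582, 542, 446 and 754 (0.44 ± 0.11, adjusted p = 0.277). Both were higher in 4 of 4 sets, and in both the groups overlapped across sets. DESeq2 called Ccr2 and F13a1 as higher and Fcgr1, the high-affinity Fc receptor gene, as lower. EdgeR called Fcgr1 as lower when the top 20% of wells were taken. Of all genes tested, DESeq2 called 477 higher and 557 lower of 17591, and the top 20% run 27 lower of 17501. Fcgr1 was low in all sums, at 0.13, 15.1, 0 and 0 CPM in the G2/M sums against 2.09, 1.69, 0.37 and 4.15, lower in 3 of 4 sets (adjusted p = 0.626). Csf1r, the M-CSF receptor gene, was at -0.08 ± 0.26 and Mpeg1, a macrophage perforin gene, at 0.62 ± 0.35.

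Counting wells in place of reads gave the share of cells with each fate factor. After thinning to 200000 reads, Irf8 had at least 5 reads in 8 of 18, 8 of 15, 5 of 23 and 20 of 24 G2/M wells of BCR-ABL 1, 2, 4 and control, and in 18 of 54, 25 of 44, 8 of 68 and 57 of 70 other wells. The mean difference over sets was 4.88 percentage points (higher in 3 of 4 sets, exact permutation p = 0.375). Gfi1 reached 5 reads in 13 of 18, 11 of 15, 22 of 23 and 10 of 24 G2/M wells and in 38 of 54, 29 of 44, 61 of 68 and 27 of 70 other wells. Its mean difference was 4.58 points, higher in 4 of 4 sets (exact permutation p = 0.13, the smallest possible), and 1.015 points when the top 20% of wells were taken.

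Wells with both Irf8 and Gfi1 made up 3 of 18, 6 of 15, 5 of 23 and 7 of 24 G2/M wells, and 6 of 54, 13 of 44, 7 of 68 and 18 of 70 other wells. Summed over sets these are 21 of 80 and 44 of 236 wells. The share of wells with both was higher in the G2/M wells of 4 of 4 sets, by 7.73 ± 3.84 points (SD, n = 4 sets, exact permutation p = 0.13, two-sided, the smallest p that 4 pairs allow). Within each set the exact binomial intervals of the 2 shares overlapped, for example 16.3% to 67.7% against 16.8% to 45.2% in BCR-ABL 2. Wells with Gfi1 alone were a smaller share of the G2/M wells in 4 of 4 sets (35 of 80 against 111 of 236, mean difference -3.15 points, exact permutation p = 0.13). G2/M wells also held more reads before thinning and 1.06 to 1.12 times as many genes after it, and the part of this in the shares was not tested.

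**Figure D5:**
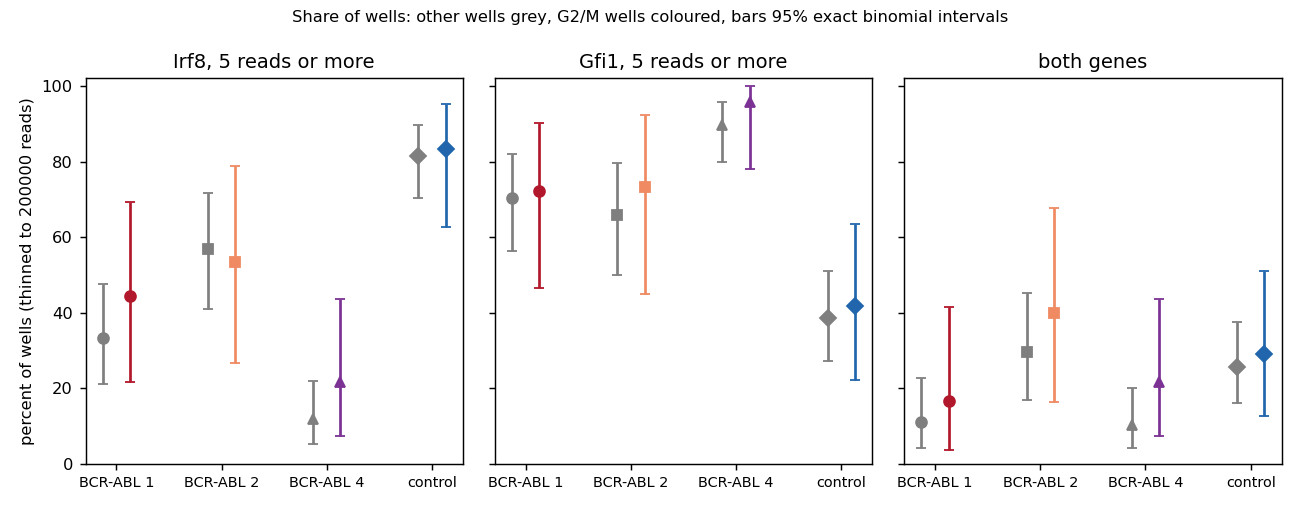
Percent of wells with at least 5 reads of Irf8, of Gfi1 and of both genes after thinning to 200000 reads, by set; grey for other wells, coloured for G2/M wells, bars 95% exact binomial intervals. In each set the intervals of G2/M and other wells overlap, while the sets differ from each other, with Irf8 in 20 of 24 G2/M wells of control and 5 of 23 of BCR-ABL 4.

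Genes of earlier progenitors and of surface receptors held no call. Of all genes tested 0.301% were called higher and 0.091% lower, so no call on a short list does not show equal levels. Of 29 early progenitor genes tested 20 had a negative log2 change (median -0.25), beside 9897 of all 17591 genes. Cd34 was at -0.05 ± 0.21 and Kit at -0.11 ± 0.15. None of 24 cytokine receptor genes was called (median -0.05), and Csf3r, the G-CSF receptor gene, was at -0.05 ± 0.09. No gene was called on the lists for early response (22 tested, median 0.25, 5 higher before adjustment), interferon response (29, -0.10), p53 targets (12, -0.08), the unfolded protein response (21, -0.02) or the BCR-ABL pathway (26, -0.10). Among markers of other cell types, the 14 basophil, mast cell and eosinophil genes had no shared direction. They summed to 355, 1277, 372 and 1209 CPM in the G2/M sums of BCR-ABL 1, 2, 4 and control. In the other sums they stood at 637, 486, 2302 and 378 CPM, the highest in the set with the 1 Prg2 well. Single wells can weigh in G2/M sums too: 36.1% of the Gata2 reads in the kept wells came from 1 G2/M well of BCR-ABL 2. The part of single wells in these sums of 14 genes was not tested. The 14 erythroid genes summed to 16.6 to 35.5 CPM in the G2/M sums, with 4 to 8 of them at 0, and to 20.3 to 38.1 CPM in the other sums. The 8 megakaryocyte genes summed to 14.1, 26.4, 33.4 and 22.5 CPM in the G2/M sums of BCR-ABL 1, 2, 4 and control. In the other sums they stood at 24.5, 30.3, 52.2 and 37.1 CPM, higher in each set. For the 14 macrophage and dendritic cell genes the G2/M sums were 90.8, 87.7, 178 and 127 CPM. Their other sums were 124, 175, 199 and 157 CPM, also higher in each set. Median log2 changes of the 2 lists were -1.87 (6 tested) and -1.095 (9 tested), without a call. The 14 lymphoid genes summed to 82.8 to 178 CPM in the BCR-ABL G2/M sums and to 658 CPM in that of control, and to 75 to 213 and 607 CPM in the other sums.

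Whether the change from other to G2/M wells differed between BCR-ABL and control sets was tested as an interaction. No gene of 19789 passed (0%), and 842 had an unadjusted p under 0.05 (4.25%). DESeq2 called 117 and limma-voom none. For Cdc25b the difference between conditions was 0.18 ± 0.60 on the log2 scale, with an interval from -1.38 to 1.74. For Mpo it was -0.07 with an interval from -0.46 to 0.31, and for Irf8 -0.05 with an interval from -1.72 to 1.63. The widest of these intervals allow changes that differ severalfold, so a shared cell cycle response is not shown for such genes. Cebpe had an interaction of 1.43 (interval 0.50 to 2.36, unadjusted p = 0.0114, adjusted p = 1), with the control G2/M sum at 13.4 CPM against 37 in its other wells and BCR-ABL sums of 49.5 to 85.6 against 56.8 to 68.9.

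BCR-ABL and control were also compared within the G2/M wells alone, 3 sums against 1, with the lone control assumed to vary like the BCR-ABL sets. No gene of 16819 passed (0%, smallest adjusted p = 0.159). Before adjustment, a p under 0.05 was found for 605 genes with higher (3.6%) and 414 with lower levels in BCR-ABL (2.46%). DESeq2 called 388 and limma-voom none. Values are therefore given without a call, and the level of the oncogene itself was not analysed here. With 1 control set, the effect of the oncogene and that of the set cannot be told apart, and BCR-ABL 1 is the only BCR-ABL set that shares its Xist level.

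Neutrophil-side genes were at higher levels in the BCR-ABL G2/M sums, and this was not particular to G2/M wells. Median Lcn2 in the other wells was 381, 147 and 491 CPM in BCR-ABL 1, 2 and 4 and 4.99 in control. For Prss57 these medians were 565, 519, 591 and 192 CPM. Within the G2/M sums, 23 of 27 late granule genes had a positive log2 difference (median 1.12), and 16 of 21 primary granule genes did (median 0.54). Of all 16819 genes tested 9103 were positive, with a median of 0.06. Lcn2 stood at 428, 337 and 469 CPM in BCR-ABL 1, 2 and 4 and at 37.1 CPM in control (3.50 ± 0.32, adjusted p = 0.655). Prss57, a granule protease gene, stood at 720, 604 and 763 CPM against 259 (1.45 ± 0.23), and Cebpe at 51.1, 49.5 and 85.6 against 13.4 (2.23 ± 0.48). Elane was at 0.75 ± 0.23, Ctsg at 0.54 ± 0.11, Gfi1 at 1.31 ± 0.45 and Mpo at -0.03 ± 0.16. In Lcn2, Prss57, Cebpe, Elane, Ctsg and Gfi1 all 3 BCR-ABL sums lay above control. The share of all genes with this pattern is not given, so it is a description of these genes only. Lyz2, a late granule gene that monocytes also express, went the other way, at 237, 340 and 266 CPM against 583 (-1.03 ± 0.25), and was the 1 gene of that list lower at an unadjusted p under 0.05.

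Monocyte-side genes were at lower levels in the BCR-ABL G2/M sums, and this was not particular to G2/M wells. Median Csf1r in the other wells was 48.5, 119 and 0.92 CPM in BCR-ABL 1, 2 and 4 and 200 in control. Within the G2/M sums, 4 of 30 monocyte genes had a positive log2 difference (median -0.96), beside 9103 of all 16819 genes tested. Csf1r stood at 134, 81.6 and 45.1 CPM against 302 in control (-1.77 ± 0.56), and Mpeg1 at 34.9, 53.1 and 52.8 against 180 (-1.91 ± 0.31). Irf8, at 381, 387 and 41 CPM against 997, varied so much among the BCR-ABL sets that its interval ran from -4.61 to 0.90. Early progenitor genes had no shared direction, with 10 of 26 positive, a median of -0.24, and before adjustment 1 higher and 3 lower with p under 0.05. Cd34, 1 of those 3, stood at 168, 129 and 130 CPM against 534 (-1.88 ± 0.24, adjusted p = 0.77).

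The mitotic genes themselves were close between conditions in G2/M wells. For 5 lists of mitotic machinery the median log2 difference lay between -0.17 and 0.12, and of the G1/S list 21 of 52 genes were positive (median -0.05). Cdk1 was at 0.18 ± 0.29, Mki67 at -0.26 ± 0.19 and Cdc25b at -0.50 ± 0.40. The wells were the same top share of each set by a score made of such genes, so these medians are no test of their level.

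The calls between G2/M and other wells rest on all 4 sets. Without any 1 of them, edgeR called no gene (smallest adjusted p from 0.0838 to 0.14), while the main calls kept their sign and an unadjusted p under 0.05 (69 of 69 genes, or 68 of 68 tested without BCR-ABL 4). Without the well with the most genes, 49 rose and 13 fell. Against the 25% of wells with the lowest score, which left out the wells with intermediate scores, 41 rose and 2 fell, and the G1/S list had a median of -0.44 and no call.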

How the data were processed

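Single-cell libraries were sequenced with SMART-seq2 and Nextera XT chemistry on an Illumina HiSeq, per the labels' protocols. The authors deposited 1 table of raw read counts per set of 96 wells, with 46078 gene rows and 92 spike-in rows. Of all reads of the kept wells 37.6% were listed as not aligned, 7.87% as in no feature and 6.62% as ambiguous, and these stayed out of library sizes. Reads were aligned to mm10 with GSNAP and counted with HTSeq 0.5.3p3, per the submitters' processing notes. The annotation release and the strand setting were not given in the sources used here, so a gene's reads cannot be separated from those of an antisense or overlapping partner. The protocol has no molecular identifiers, and intervals on shares cover counting error only. No doublet caller was run on wells sorted with 1 cell each.

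A symbol was matched to 45143 gene IDs with GENCODE vM21 and 935 stayed unmatched. Counts of the G2/M wells and of the other wells were summed per set, giving 8 sums of 36576784 to 103146985 reads. Genes were tested with edgeR 4.0.16 (TMM, filterByExpr, quasi-likelihood F test, Benjamini-Hochberg adjusted p under 0.05) in R 4.3.3, with the set as a block, since both sums of a pair come from the same set. The 12 score genes stayed in library sizes and were left out of the tests. SE is the log2 change divided by the root of F. Per-set log2 ratios used CPM + 0.5. Shares of wells were computed after thinning to 200000 reads, with exact Clopper-Pearson 95% intervals and sign-flip permutation tests over the 4 sets. DESeq2 1.42.0 and limma 3.58.1 were run as alternatives, with other filters, thresholds and left-out sets. The scripts were tested on simulated data.

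Genes named are the 12 with the largest called change in each direction with the same sign in 4 sets (with a read in 25% of wells of a sum, predicted genes left out), up to 4 genes with the smallest p per list, and a fixed set of fate, granule and cycle genes. Ccna2, Tpx2, Arl6ip1, Paics, Fcgr1 and Sncaip were picked after their values were seen. The members and the 26 lists were chosen with earlier results of these data known. The 4 sets held 0 pairs of identical wells.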

Additional observations from a re-analysis of the deposited data

How the results depend on the processing

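Between G2/M and other wells 69 genes were called. The count was within 1.5 times of this with relative log expression size factors, with the top 20% or a larger top share of wells, with looser well filters, with membership from 6 of the 12 score genes, and without the well with the most genes. It was 136 with no filter on low counts, 1034 with DESeq2, 128 with limma-voom, 167 with score and sums from thinned wells, 177 with sums from thinned wells alone, 125 with no replicate block and 43 against the 25% of wells with the lowest score; the cause was not tested. Leaving out each set gave 0 to 0 calls; the cause was not tested. Restricting both kinds of well to those with Gfi1 and without Irf8, or to those with Irf8, also gave 0 calls each, with 69 of 69 and 68 of 68 of the called genes of the same sign and 62 and 67 of them at an unadjusted p under 0.05. Both restrictions, and the removal of 1 well, were chosen after seeing the data. DESeq2 called 117 genes for the difference between conditions and 388 for BCR-ABL against control within G2/M wells, where no filter on low counts gave 4, each against 0 in edgeR. The Gfi1 share differed by 1.015 points with the top 20% of wells. None of 38 called named genes changed sign under any alternative run, while 43 of 108 named genes without a call did in at least 1. Over the same alternatives the median log2 change ran from -0.14 to 0.05 for primary granule genes, -0.13 to 0.11 for monocyte genes and -0.14 to 0.16 for fate regulators, so these medians have no stable sign. The median ran from -0.35 to -0.05 for late granule genes and from -0.40 to -0.09 for early progenitor genes, negative in every run. Depth per well limits the shares: a gene under 5 reads of 200000 was counted as absent.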
